A study of Mus musculus with 6 samples.

Results

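Btla and 9 further genes of inhibitory receptors and their ligands were followed in induced regulatory T cells (iTregs) from control mice and from mice with an inducible deletion of Dlst. The genes were Btla, Cd160, Pdcd1, Lag3, Havcr2 and Vsir, which encode receptors, Tnfrsf14 and Tnfsf14, which encode the binding partners HVEM and LIGHT, and Cd274 and Cd200, which encode ligands. They were taken by symbol from the per-sample tables, where each of the 10 had 1 identifier, out of 21899 listed genes. The set was selected on its role together with the measured difference of Btla between KO and WT in these same samples. The differences between KO and WT are therefore given for these genes as a description and not as a test. All 10 passed the filter on low counts that left 12768 genes for the fit across all genes.

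The 6 libraries were bulk mRNA sequencing of mouse cells, 3 from WT and 3 from KO. WT samples came from the controls that the labels call iWT, and KO samples from Dlst-Treg iKO mice, an inducible knockout of Dlst, which encodes a subunit of the 2-oxoglutarate dehydrogenase complex of the TCA cycle. In both groups CD4+ T cells of the spleen were put under Treg polarising conditions for 2 days with 4-hydroxytamoxifen, the drug that switches on inducible Cre, and cells positive for CD4, FoxP3-GFP and tdTomato-RFP were sorted. The labels used here do not name the driver of Cre or the age of the mice. Nor do the labels call the samples separate animals or cultures, so p-values measure only how these samples vary, which can be technical in part.

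BTLA is an immunoglobulin-family receptor on T and B cells whose cytoplasmic tail recruits the phosphatases SHP-1 and SHP-2 when HVEM, a TNF receptor family member, binds it. HVEM is shared: CD160 also binds it, and so does LIGHT, a TNF family cytokine that signals into the HVEM-bearing cell. PD-1, LAG-3, TIM-3 and VISTA, encoded by Pdcd1, Lag3, Havcr2 and Vsir, are further brakes on T cell activation, and PD-1, LAG-3 and TIM-3 appear or increase after antigen receptor stimulation.

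Total estimated counts ran from 33590510 to 49772670 per library. Dlst itself had 149 to 161 CPM (counts scaled to library size with TMM factors) in the WT libraries and 125 to 129 CPM in the KO libraries. The fitted KO level was 0.834 times WT (edgeR adjusted p = 0.0894), so the KO libraries still held most of the Dlst counts. Counts per gene do not tell whether this mRNA was intact or which cells held it. T cell markers were high in all 6 libraries, for example Cd3e at 289 to 327 CPM. Of the 6 T cell and sort markers, Cd3e, Cd3g and Il2ra overlapped between the groups. Cd4, at 507, 506 and 522 CPM in WT and 465, 445 and 432 CPM in KO, and Cd3d were lower in each KO sample. Foxp3, at 154, 202 and 198 CPM in WT and 231, 207 and 227 CPM in KO, was higher in each. By edgeR 0 of the 6 passed an adjusted p of 0.05. KO replicate 1 stood apart from the other 5 libraries: its summed level of 4 Y-linked mRNAs was 253 CPM against 0.667 to 1.25 CPM, and the summed level of 10 monocyte and macrophage markers reached 387 CPM in it, with 105 and 116 CPM for KO replicates 2 and 3 and 22.2 to 33.8 CPM for WT. By these Y-linked mRNAs KO replicate 1 differed in its source animals from KO replicates 2 and 3, so the spread within KO is not technical alone, and what the source adds to each comparison was not tested. Summed markers of other cells also differed between the groups. The 8 neutrophil markers summed to 5.94 to 32.1 CPM in WT and 69.1 to 295 CPM in KO. All 8 were higher in each KO than in each WT sample, while 22.8% of all tested genes did not overlap in either direction. The 8 CD8 T and NK cell markers, led by Cd8a and Cd8b1, summed to 47.3 to 82.9 CPM in WT and 91.4 to 107 CPM in KO. Of the 5 tested, Cd8a, Cd8b1 and Prf1 were higher in each KO sample, and Klrk1 and Gzma overlapped. Klre1, Ncr1 and Klrb1c had too few counts to be tested, and of these Klre1 was lower in each KO sample. Dendritic cell markers, also 8, summed to 4.50 to 6.14 CPM in WT and 8.39 to 11.8 CPM in KO. Only Itgax, among the 4 tested, was higher in each KO sample, with 4.4 to 8.2 CPM there against 1.77 to 2.11 CPM for WT. Flt3, Zbtb46 and Xcr1 overlapped, while Clec9a, Siglech, Cd209a and Clec10a had too few counts to be tested. The higher sum therefore does not show that dendritic cell markers as a group were higher. The part of these cells in the results below was not tested. KO replicates 2 and 3 were the closest pair of a group, with a biological coefficient of variation of 2.97% against 7.16 to 15.3% for the other pairs. Their counts differed by more than sampling noise and they were kept as 2 samples. That excess cannot show that they were separate animals or cultures, so n = 3 for KO rests on counting them apart. Across all tested genes edgeR called 86 (0.674%) at a Benjamini-Hochberg adjusted p under 0.05, 58 (0.454%) higher and 28 (0.219%) lower in KO, while 1924 (15.1%) had an unadjusted p under 0.05. That total was 177 (1.39%) with the replicate number as a block. Leaving out WT replicate 2 gave 27 and WT replicate 3 gave 16, while leaving out KO replicate 2 gave 10 and KO replicate 3 gave 4. With KO replicates 2 and 3 summed into 1 sample the total was 8.

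Btla and Cd200 adjoin each other on chromosome 16. In GENCODE M21 (GRCm38), which need not be the authors' annotation, Btla (ENSMUSG00000052013) lies on the plus strand from 45224315 to 45257670 and Cd200 (ENSMUSG00000022661) on the minus strand from 45382135 to 45409053, with 124 kb and 0 annotated genes between them. The 250 bases before each RefSeq start, from RefSeq's table for GRCm38.p6, are shown as a description. They were picked with the levels of both genes known, and whether they bear on either level was not tested. The Btla stretch is chr16:45224087-45224336 on the plus strand and that of Cd200 is chr16:45409054-45409303 on the minus strand. Both are written 5′ to 3′, with capitals for the motif matches described next. The Btla stretch runs past the GENCODE start of 45224315, so its last bases lie inside the gene as GENCODE places it.

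Btla: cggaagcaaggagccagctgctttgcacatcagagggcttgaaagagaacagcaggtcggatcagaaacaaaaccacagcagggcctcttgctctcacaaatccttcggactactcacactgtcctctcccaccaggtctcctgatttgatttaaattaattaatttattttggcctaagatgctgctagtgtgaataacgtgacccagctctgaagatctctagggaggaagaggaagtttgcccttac

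Cd200: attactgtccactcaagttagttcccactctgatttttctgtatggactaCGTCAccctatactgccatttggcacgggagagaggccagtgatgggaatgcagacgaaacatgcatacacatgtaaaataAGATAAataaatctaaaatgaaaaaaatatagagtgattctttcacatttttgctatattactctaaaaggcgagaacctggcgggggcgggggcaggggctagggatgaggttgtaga

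Both strands were searched for 8 short motifs. They were the CRE core TGACG, the site AGATAA of GATA factors, the NFAT core GGAAAA, the AP-1 site TGANTCA, the STAT site TTCNNNGAA, the box TATAAA of core promoters, the forkhead site GTAAACA and the E box CACCTG. None of the 8 was found in the Btla stretch. The Cd200 stretch held 1 match to TGACG, on the reverse strand, and 1 to AGATAA, which occur in 17.8% and 10.0% of 32851 RefSeq promoters of the same length. The Btla stretch had a GC content of 47.2% and that of Cd200 42.4%, against a median of 52.4% over all promoters.

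Btla was abundant in WT and lower in every KO sample. WT replicates 1 to 3 had 101, 110 and 92.7 CPM, and KO replicates 1 to 3 had 55.2, 34.2 and 32.1 CPM, the order used for all values that follow. The groups did not overlap, and KO replicate 1 lay between WT and the other KO samples. WT averaged 101 ± 8.49 CPM and KO 40.5 ± 12.7 CPM (SD, n = 3 each), a fitted KO level of 0.402 times WT. On the log2 scale this was -1.32 (SE 0.21, with a 95% interval of -1.81 to -0.82), in place 54 of 12768 from the lowest. Without KO replicate 1 it was -1.61, and over 16 alternative settings it ran from -1.61 to -1.17. Fewer cells with Btla mRNA and less of it per cell cannot be told apart in bulk samples, here or for the genes below.

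B cells carry much Btla, so their markers were set beside it. The summed level of 9 B cell markers, led by Cd79a and Cd79b, came to 102, 33.0 and 17.1 CPM for the WT samples and to 34.4, 32.6 and 33.3 CPM for the KO samples. WT replicate 1 was the high sample and WT replicate 3 the low one, with the KO samples between them. Of the 9 markers 0 separated the groups, against 22.8% of all tested genes. The part of B cells in the Btla level was not tested.

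**Figure D1:**
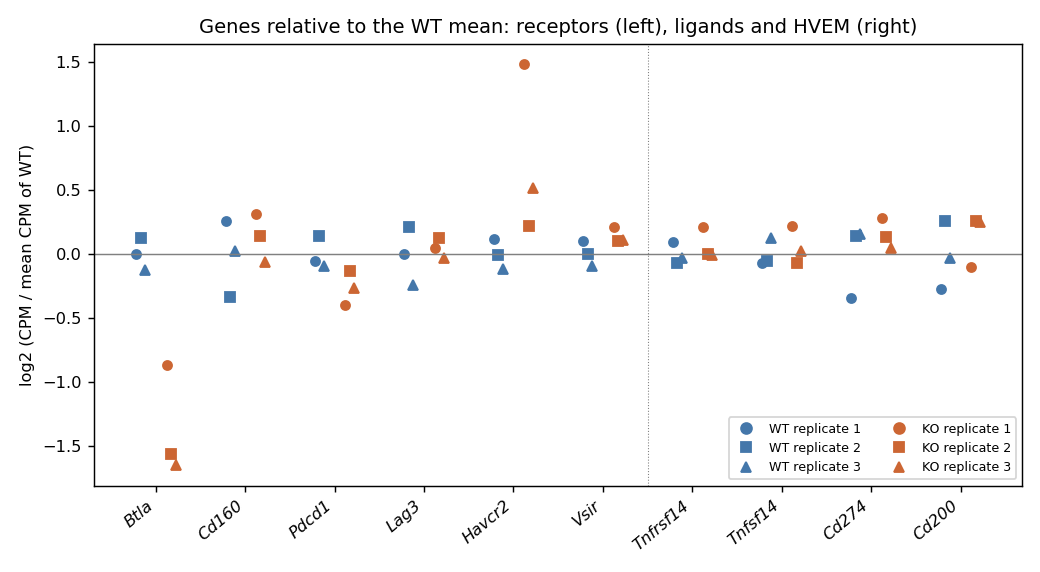
Level of each gene in each sample relative to the mean of the 3 WT samples, as log2 of the CPM ratio, with WT in blue, KO in orange and 1 symbol per replicate number. Receptors are left of the dotted line, and HVEM (Tnfrsf14) and ligands right of it. Btla lies below WT in all 3 KO samples, Havcr2 is highest in KO replicate 1, and most other genes are mixed.

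The partners of BTLA in the HVEM network stood at similar levels in both groups. Tnfrsf14, the gene of HVEM (chromosome 4, 154921933 to 154928563), was at 25.1, 22.4 and 23.0 CPM in WT and 27.2, 23.4 and 23.3 CPM in KO, with a log2 fold change of 0.07 (SE 0.08, 95% interval -0.13 to 0.26). Tnfsf14, which encodes LIGHT (chromosome 17, 57189492 to 57194177), was at 14.1, 14.2 and 16.1 CPM in WT and 17.2, 14.1 and 15 CPM in KO, with an interval of -0.17 to 0.29. Cd160, the other inhibitory partner of HVEM (chromosome 3, 96798763 to 96829351), was at 8.66, 5.73 and 7.34 CPM in WT and 8.98, 7.97 and 6.92 CPM in KO, with an interval of -0.26 to 0.54. WT and KO overlapped for all 3 of these genes. The sign of each turned in 1 or 2 of the 16 settings, so no direction is given for them. Of Btla and these 3 genes, Btla alone had no overlap between the groups, which 22.8% of all tested genes also lacked. The difference of Btla entered the choice of the set, so nothing is read from this contrast.

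Of the other receptors, Pdcd1, which encodes PD-1, was the most abundant gene of the set and was lower in the 3 KO samples. It stood at 260, 297 and 253 CPM in WT and at 205, 246 and 224 CPM in KO. The highest KO sample, replicate 2, lay just under the lowest WT sample, replicate 3. The means were 270 ± 23.8 and 225 ± 20.7 CPM (SD, n = 3 each) and KO differed by -0.26 on the log2 scale (SE 0.09, 95% interval -0.46 to -0.06), or -0.33 to -0.19 over the alternatives. Pdcd1 lies on chromosome 1 from 94038305 to 94052553.

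Vsir, which encodes VISTA (chromosome 10, 60346851 to 60372684), was at 215, 201 and 188 CPM in WT and 232, 215 and 216 CPM in KO. WT replicate 1 and KO replicate 2 were nearly equal, so the separation of the groups is narrow. The log2 fold change was 0.14 (95% interval -0.01 to 0.29) on counts and 0.04 on TPM. In TPM the groups overlapped, at 127, 114 and 104 in WT and 124, 121 and 111 in KO. Lag3, whose product binds MHC class II (chromosome 6, 124904361 to 124911705), was at 37.6, 43.5 and 31.7 CPM in WT and 38.8, 40.9 and 36.7 CPM in KO. Its groups overlapped, with an interval of -0.21 to 0.30, and its sign turned in 1 setting.

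Havcr2, which encodes TIM-3 and is also expressed by myeloid cells, was the least abundant of the 10. Its estimated counts were 43.25, 50.81 and 46.58 for WT against 154.06, 43.35 and 60.9 for KO. Scaled, these made 1.19, 1.09 and 1.01 CPM against 3.07, 1.28 and 1.57 CPM. KO replicate 1 was far above the rest, and KO replicate 2 barely above WT. The log2 fold change was 0.86 (95% interval 0.07 to 1.66), and 0.38 without KO replicate 1. The order of the 6 libraries by Havcr2 was their order by summed monocyte and macrophage markers: 22.2, 24.2 and 33.8 CPM in WT replicates 3, 2 and 1, then 105, 116 and 387 CPM in KO replicates 2, 3 and 1. Of those 10 markers 9 were tested, and 0 of the 10 were at 0 throughout. All 9 had higher levels in each KO than in each WT sample, while 22.8% of all tested genes did not overlap in either direction. The part of these cells in the Havcr2 level was not tested. Havcr2 lies on chromosome 11 from 46454935 to 46481255.

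**Figure D2:**
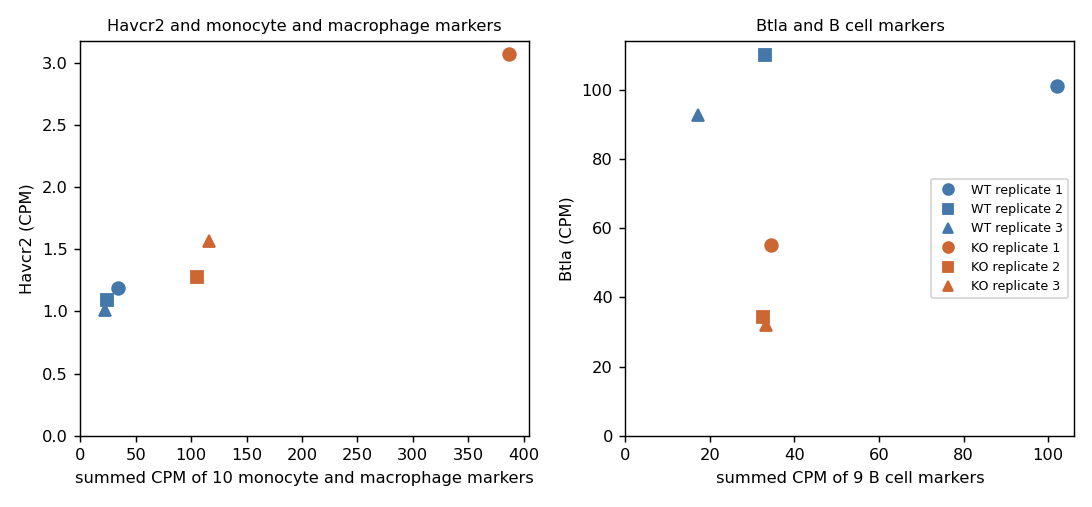
Left, Havcr2 against the summed level of 10 monocyte and macrophage markers, and right, Btla against the summed level of 9 B cell markers, both in CPM, with 1 point per sample. Havcr2 is highest in KO replicate 1, where the marker sum is 387 CPM. On the right the marker sum is highest in WT replicate 1, and the 3 KO samples lie between 32.6 and 34.4 CPM.

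Neither ligand gene separated the groups. Cd274, the gene of PD-L1 (chromosome 19, 29367455 to 29388095), was at 99.2, 139 and 140 CPM in WT and 153, 138 and 130 CPM in KO. WT replicate 1 was the low sample and KO replicate 1 the high one. The log2 fold change of Cd274 was 0.15 (95% interval -0.17 to 0.48), and without both of these samples it was -0.06. Cd200, whose product binds an inhibitory receptor of myeloid cells, was at 84.4, 122 and 99.8 CPM in WT and 94.9, 122 and 121 CPM in KO, with an interval of -0.21 to 0.49.

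Counted over the set, 0 of 10 genes passed edgeR's adjusted p of 0.05, against 0.674% of all tested genes. An unadjusted p under 0.05 was found for 3, Btla, Pdcd1 and Havcr2, against 15.1% of all. DESeq2, limma on log2(TPM + 1) and log2(TPM + 0.1) and edgeR with the replicate block each called 1, Btla, against 3.02%, 0.282%, 0.501% and 1.39% of all genes. Of the 16 alternative settings 7 called Btla. It did not pass with no low-count filter (edgeR adjusted p = 0.106). Nor did it pass when any 1 sample other than KO replicate 1 was left out (edgeR adjusted p = 0.0981 to 0.197). CPM of WT and KO did not overlap for 4 of the 10 (Btla and Pdcd1 lower, Havcr2 and Vsir higher, of which Vsir overlapped in TPM), and for 22.8% of all tested genes. The median log2 fold change was 0.10 over the 10 and -0.003 over all tested genes. Because this contrast entered the choice of the genes, nothing is read from these counts.

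Between genes, levels were compared as TPM, which divides by gene length. In WT the order was Pdcd1 at 243 ± 17.9 TPM (SD, n = 3, as for all in this order), Vsir at 115 ± 11.6, Cd200 at 83.7 ± 14.0, Btla at 61.4 ± 4.66, Cd274 at 60.6 ± 10.9, Tnfrsf14 at 37.3 ± 3.03, Lag3 at 32.7 ± 4.68, Tnfsf14 at 13.9 ± 1.15, Cd160 at 10.3 ± 2.16 and Havcr2 at 0.717 ± 0.068 TPM. The ranges of Btla and Cd274 overlapped, as did those of Tnfrsf14 and Lag3, and the other neighbours in this order did not overlap. In KO the order was the same except for Btla, which at 25.4 ± 6.80 TPM came seventh, after Lag3 at 33.7 ± 1.79 TPM, whose range it overlapped. Btla made up 9.60, 9.40 and 8.95% of the summed TPM of the 10 genes in WT, and 5.47, 3.46 and 3.57% in KO. Pdcd1 made up 36.4 to 37.6% in WT and 30.4 to 35% in KO.

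**Figure D3:**
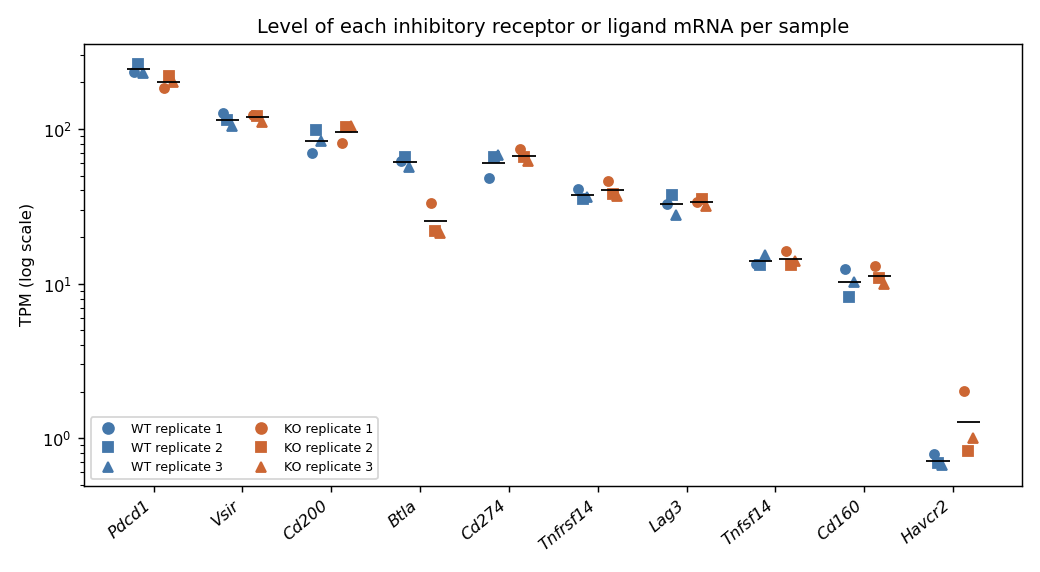
TPM of each of the 10 genes in each sample on a log scale, ordered by the mean in WT, with WT in blue, KO in orange and a black bar at each group mean. Btla holds the fourth place in WT and the seventh in KO, and the other genes keep their order.

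The ratio of a gene's deposited count to its TPM, scaled to the library, follows the gene length used for the TPM, which can differ between libraries where a gene has several transcripts. Why it differed was not tested. The ratio was the same in all 6 libraries for Pdcd1, Lag3, Tnfsf14 and Cd274, each with 1 annotated coding transcript. Cd200, with 2, stood at 99.7 to 100% of its WT mean in the WT samples and at 96.1, 96.8 and 94.8% in KO replicates 1 to 3. Its KO samples thus all lay below WT in this ratio although its total level overlapped. Such a lack of overlap, by more than 0.005 on the log2 scale, was found in 776 (7.8%) of 9946 genes with at least 100 counts in each library. Btla, also with 2, was at 101, 94.9 and 91.9% in KO replicates 1 to 3 and at 99.4 to 100% in WT, so KO replicate 1 was near WT and the other KO samples were lower. Tnfrsf14 and Vsir varied from 93.9 to 102% and from 97.3 to 111% with overlap between the groups, and Cd160 from 98.2 to 104%. Havcr2 had too few counts for this ratio.

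Genes near Btla were then compared with it. Of 43 other annotated genes within 1 Mb of Btla or Cd200, 27 were listed and 16 had enough counts to be tested. Plcxd2 (45959263 to 46010218, minus strand), 702 kb beyond Btla, was the gene whose pattern over the 6 samples was most like that of Btla among 9820 genes of mean log2 CPM of at least 2. The likeness is the root mean square difference of centred log2 CPM, which was 0.24 for Plcxd2. Plcxd2 stood at 41.8, 44.9 and 43.4 CPM in WT and at 31.1, 19.3 and 20.4 CPM in KO, again with KO replicate 1 between WT and the other KO samples. KO differed by -0.87 on the log2 scale (SE 0.17, edgeR adjusted p = 0.0953), and by -1.13 without KO replicate 1 (edgeR adjusted p = 0.00179), a fit that called 0.641% of all genes.

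Others in the region went the same way to a lesser extent. Slc35a5, a solute carrier gene that ends 65.6 kb before Btla, was at 16.6, 17.8 and 17.9 CPM in WT and 15.7, 12.8 and 12.4 CPM in KO. Abhd10, which encodes a hydrolase 472 kb beyond Btla, was at 15.1, 14.1 and 15.6 CPM in WT and 14.0, 10.6 and 10.2 CPM in KO. Cd96, an inhibitory receptor gene of the related lists, 778 kb beyond, was at 69.5, 123 and 110 CPM in WT and 74.5, 48.8 and 48.5 CPM in KO. In each of these, KO replicates 2 and 3 were nearly equal and below all WT samples, and KO replicate 1 was nearer to WT or within it. KO replicates 2 and 3 both lay below all 3 WT samples for 8 of the 16 neighbours, and for 15.6% of all tested genes, a feature chosen after the values were seen. The 4 besides Plcxd2, Slc35a5, Abhd10 and Cd96 were Usf3, Nepro, Atg3 and Ahcyl, with log2 fold changes from -0.20 to -0.04. KO replicate 1 was the highest KO sample for 6 of the 8. For Ahcyl it was the lowest, with 201, 250 and 254 CPM in KO, and for Nepro it lay between KO replicates 2 and 3.

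With KO replicate 1 left in, edgeR called 1 of these 16 neighbours (6.25%, against 0.674% of all genes), and it was higher in KO: Cd200r3, which encodes a CD200 receptor family member of basophils and mast cells. It was at 0.389, 0.17 and 0.237 CPM in WT and 1.16, 1.19 and 1.11 CPM in KO (2.14 on the log2 scale, SE 0.33, edgeR adjusted p = 0.0412). The call was lost with the replicate block (adjusted p = 0.0595) and without WT replicate 2 (0.155), WT replicate 3 (0.15), KO replicate 1 (0.0848), KO replicate 2 (0.106) or KO replicate 3 (0.152). The summed level of 6 basophil and mast cell markers, a list added after these values were seen, was 1.38 to 2.90 CPM in WT and 5.09 to 7.75 CPM in KO, and its part in Cd200r3 was not tested. The other 15 neighbours did not pass. Without WT replicate 1 and KO replicate 1, a setting chosen after the data were seen in which 538 of all genes (4.21%) passed, 6 of the 16 did: Cd200r3 and Cd200r4 higher and Slc35a5, Abhd10, Plcxd2 and Cd96 lower. Sidt1, Spice1, Gtpbp8, Cd200r1, Phldb2 and Nectin3 did not pass in either fit, with log2 fold changes from -0.41 to 0.46 over all 6 samples. Whether the place of Btla on the chromosome bears on its level was not tested.

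**Figure D4:**
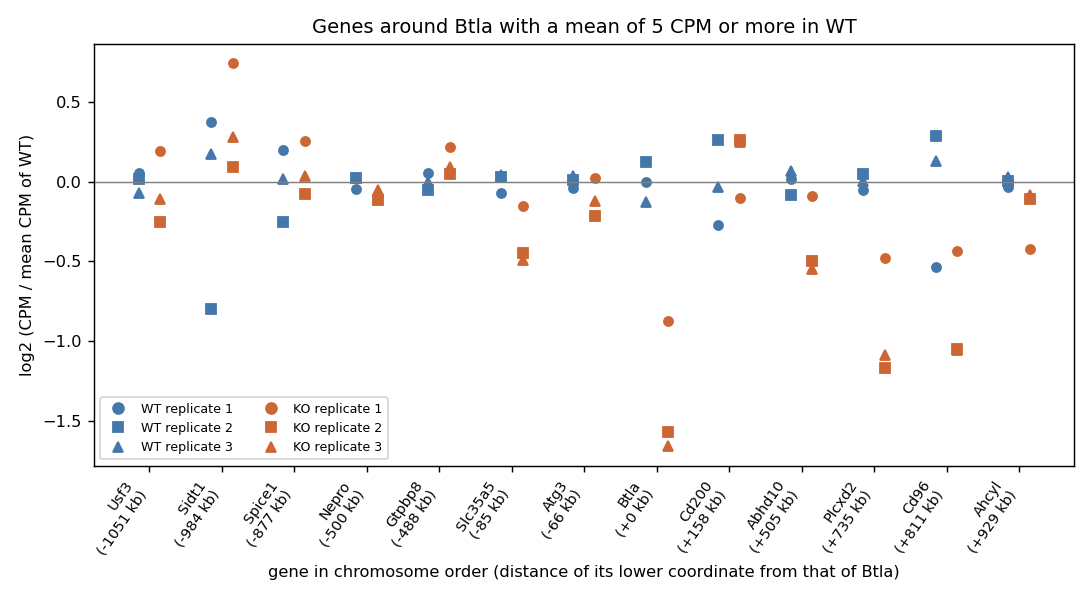
Genes within 1 Mb of Btla or Cd200 with a mean of at least 5 CPM in WT, in chromosome order with the distance of their lower coordinate from that of Btla in kb, as log2 of CPM over the WT mean, 1 point per sample. Btla, Plcxd2, Cd96, Slc35a5 and Abhd10 show KO replicates 2 and 3 low and KO replicate 1 higher than these. Cd200 and Gtpbp8 do not.

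Away from chromosome 16, the genes with patterns most like that of Btla were Penk, the enkephalin precursor, at a root mean square difference of 0.243, Sfn (0.308), Crat, carnitine acetyltransferase (0.311), and Dynlt1b (0.323). Penk was at 15.2, 16.2 and 14.0 CPM in WT and 8.96, 7.71 and 6.69 CPM in KO. Their log2 fold changes ran from -1.39 (Dynlt1b) to -0.90 (Sfn), and Dynlt1b is uncertain because it has near-identical copies and counts that were not whole. The counts of Crat were not all whole either. All 4 were past the threshold as reported (edgeR adjusted p = 0.0124 to 0.0292). Leaving out 1 sample took the adjusted p of Penk to as much as 0.0998, of Sfn to 0.129, of Crat to 0.0878 and of Dynlt1b to 0.0765. Because likeness to Btla chose them, their direction is a description. Of the other 8 members tested on this scale, Pdcd1 was the nearest to Btla (0.631), 385th of the 9820 genes. Cd200, its neighbour, was the farthest at 0.847.

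The binding partners of the 10 genes' products beyond the set were taken from a list of 17, of which 13 were tested. By edgeR 0 passed in either direction, against 0.674% of all genes, and 4 had an unadjusted p under 0.05, against 15.1% of all genes, the background for each list that follows too. The median log2 fold change was 0.16. The lymphotoxin genes, whose products belong to the HVEM and LIGHT network, both overlapped between the groups. Lta was at 484, 797 and 709 CPM in WT and 534, 604 and 572 CPM in KO (-0.22 on the log2 scale, 95% interval -0.62 to 0.18). Ltb was at 144, 128 and 164 CPM in WT and 220, 161 and 173 CPM in KO. Its log2 fold change was 0.35 (95% interval 0.03 to 0.66, edgeR adjusted p = 0.301). Pdcd1lg2, which encodes PD-L2, was at 50.3, 58.0 and 51.6 CPM in WT and 35.5, 50.8 and 46.8 CPM in KO (a difference of -0.27, edgeR adjusted p = 0.393). Cd200r4, a CD200 receptor family gene of myeloid cells, differed by 2.21 on the log2 scale (SE 0.39, edgeR adjusted p = 0.0596), with 0.277 to 0.366 CPM in WT and 2.32, 1.13 and 1.06 CPM in KO. Lgals3, which encodes a galectin that binds LAG-3 and is abundant in macrophages, differed by 1.09 (SE 0.33, adjusted p = 0.219), with 78.4 CPM in KO replicate 1. Both were highest in KO replicate 1, where the monocyte and macrophage markers summed to 387 CPM, and the part of these cells was not tested. Lgals9, whose product binds TIM-3, was at 91.4, 94.7 and 102 CPM in WT and 115, 102 and 105 CPM in KO.

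Other inhibitory receptors gave 0 calls among 18 tested genes, 8 of which had an unadjusted p under 0.05, with a median log2 fold change of -0.06. Ctla4 was at 99.5, 69.6 and 67.4 CPM in WT and 81.0, 70.8 and 72.3 CPM in KO, which overlap. Tigit was at 24.0, 20.4 and 16.1 CPM in WT and 10.9, 17.1 and 15.8 CPM in KO, which also overlap. Cd5, a brake on antigen receptor signalling, was at 586, 598 and 527 CPM in WT and 380, 475 and 450 CPM in KO without overlap, which is -0.39 on the log2 scale (SE 0.09, edgeR adjusted p = 0.121). Cd72, a receptor best known from B cells, differed by 0.91 (SE 0.19, adjusted p = 0.0894) with 4.16, 7.16 and 6.44 CPM in WT and 11.1, 10.8 and 11.6 CPM in KO. It passed without WT replicate 1 (edgeR adjusted p = 0.044), where 0.713% of all genes did. When any other 1 sample was left out it did not pass (edgeR adjusted p = 0.137 to 0.26). Pilra, a myeloid receptor gene, differed by 2.02 (SE 0.45, adjusted p = 0.111) and was highest in KO replicate 1 at 3.47 CPM, where the monocyte and macrophage markers were highest too.

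Ligands of other checkpoints gave 0 calls among 8 tested, with 0 at an unadjusted p under 0.05 and a median of 0.06. Nectin2, at under 1 CPM, differed by 0.72 on the log2 scale (SE 0.34) and Cd48 by -0.09 (SE 0.05). Co-stimulatory receptors and TNF family genes gave 0 of 16 and a median of -0.14, with 12 of 16 below 0 and 5 at an unadjusted p under 0.05. Tnfrsf25, which encodes death receptor 3, was at 42.1, 49.6 and 57.2 CPM in WT and 85.0, 63.9 and 68.3 CPM in KO (0.54 on the log2 scale, SE 0.14, edgeR adjusted p = 0.157). Tnfrsf8, which encodes CD30, was at 1.80, 2.66 and 1.66 CPM in WT and 0.898, 1.22 and 1.08 CPM in KO (-0.94 on the log2 scale, SE 0.26, edgeR adjusted p = 0.171).

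Signalling genes below these receptors gave 0 calls among 21 tested, with 6 at an unadjusted p under 0.05 and a median log2 fold change of -0.02. Ptpn6, the gene of SHP-1, was at 234, 258 and 239 CPM in WT and 245, 231 and 235 CPM in KO, and Ptpn11, the gene of SHP-2, at 179, 185 and 185 CPM and 168, 173 and 170 CPM. Dok2, an adaptor, differed by -0.35 (SE 0.09, edgeR adjusted p = 0.153), and passed without WT replicate 1 (-0.45, adjusted p = 0.044). When any other 1 sample was left out Dok2 did not pass (edgeR adjusted p = 0.203 to 0.341). Ptpn22, a phosphatase that dampens antigen receptor signals, differed by 0.18 (SE 0.06, adjusted p = 0.213). Transcription factors known to act on inhibitory receptor genes gave 0 of 20, with 5 at an unadjusted p under 0.05 and a median of -0.07. Nr4a1, induced by antigen receptor signals, was at 191, 140 and 167 CPM in WT and 252, 206 and 196 CPM in KO (0.39 on the log2 scale, SE 0.13, edgeR adjusted p = 0.247), and Tcf7 differed by 0.20 (SE 0.07, adjusted p = 0.248).

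Over the 6 related lists together, edgeR called 0 of 96 tested genes, against 0.674% of all genes, and 28 had an unadjusted p under 0.05, against 15.1% of all genes. DESeq2, which called 3.02% of all genes, called 7 of these, Cd200r4, Cd72, Lilrb4a, Pilra and Tnfrsf25 higher and Cd5 and Dok2 lower, and limma on log2 TPM called 0. WT and KO did not overlap for 34 of the 96, or 35.4%, against 22.8% of all tested genes. The median log2 fold change over the 96 was -0.04. With WT replicate 1 and KO replicate 1 left out, 12 of the 96 passed, and 538 (4.21%) of all genes.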

How the data were processed

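The authors deposited, per the file headers, 1 table of estimated counts per gene and 1 table of TPM for each sample. FastQC and HISAT2 are named without versions in the submitters' processing notes, and no counting program, build or annotation is named there or in the labels. From 23.5 to 25.2% of genes per library had counts that were not whole, among them Tnfrsf14, Cd274, Lag3 and Havcr2. Expected counts were rounded, genes were filtered by filterByExpr (12768 kept, 9131 not), and libraries were scaled by TMM. KO and WT were compared with edgeR 4.0.16 (two-sided quasi-likelihood F test, robust dispersion, genotype alone), with Benjamini-Hochberg adjustment over all tested genes. R 4.3.3, limma 3.58.1, DESeq2 1.42.0 and Python 3.11.15 were used, and the fit was tested on simulated data. Of 21899 identifiers, 21806 matched GENCODE M21.

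The genes, lists and rules were chosen with earlier results of these data known. Named were the 10 genes, in each related list up to 4 past the threshold or 2 of the smallest p, the 5 genes most like Btla and the genes around it. Lta, Ltb, Pdcd1lg2, Lgals9, Ctla4, Tigit, Cd5, Ptpn6 and Ptpn11 were named besides, from the same lists. Cd244 of the lists was listed as Cd244a. 1 marker of the B cell list is not reported here and was left out of its sum. A search of the receptor proteins for tail motifs was not run. Deviations of WT and KO samples with the same number had correlations of 0.188, 0.169 and 0.136 across 9821 genes. For samples with different numbers they ran from -0.175 to 0.12, close to the lowest of these. The labels state no pairing and these values do not settle it. The main fit therefore used genotype alone, and the number served as a block in an alternative setting only.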

Additional observations from a re-analysis of the deposited data

How the results depend on the processing

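Over 16 alternative settings, 156 of 160 values of the 10 genes moved by less than the spread between replicates, and the other 4 were of Havcr2 and Vsir. Btla and Pdcd1 were lower in KO and Havcr2, Vsir and Cd200 higher in all 16. Genes called over all genes, 86 as reported, were 527 with DESeq2, 133 with no low-count filter, 177 with the replicate block, 36 by limma on log2(TPM + 1), 8 with KO replicates 2 and 3 summed, 538 without both replicates numbered 1, and 4 to 93 when 1 sample was left out. Related genes called, 0 as reported, were 7, 1 (Cd200r4, with no filter) and 12 with DESeq2, with no filter and without both replicates numbered 1, and 0 to 2 when 1 sample was left out. Neighbours called, 1 as reported, were 3 with DESeq2, 2 with no filter, 6 without both replicates numbered 1, and 0 with the replicate block, with both limma settings and with KO replicates 2 and 3 summed. They were 0 to 1 when 1 sample was left out. The replicate block turned Btla past the threshold (edgeR adjusted p = 0.0373; its range across settings was 4.95e-11 to 0.197), removed Cd200r3 and changed no other call of a gene named here. The causes were not tested. With 3 samples a group, and 43.25 counts of Havcr2 in its lowest library, small differences are not resolved.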
